A study of Mus musculus with 4 samples.

Results

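The comparison described here sets B16F10 melanoma cells sorted from a 2D co-culture with NIH/3T3 fibroblasts against B16F10 cells grown alone in 2D. Its members were the 9171 of 24527 genes in the count table (37.4%) whose mean over these 2 RNA-seq libraries reached 10 CPM, that is, read counts scaled to library size. Of these, 9155 genes had at least 1 CPM in the monoculture and are called expressed, and 16 genes were under 1 CPM there and are set apart. The series holds 4 mouse libraries, 1 for each of the 2D monoculture, the 2D co-culture, the spheroid and the tumor grown in mice, all of wild-type genotype in the labels. The spheroids used for sequencing were made of B16F10 and NIH/3T3 cells per the study's methods. The cultured cells were B16F10 expressing a green fluorescent protein, the fibroblasts were NIH/3T3 cells with a red fluorescent label, and per the study's methods green fluorescent cells that excluded a dead-cell dye were sorted from the cultures. The tumor was grown from B16F10 cells injected under the skin of both flanks of 1-year-old female C57BL/6 mice; its label gives tumor tissue and a snap-frozen library name, whereas the methods speak of cells sorted from tumors. The number of mice, the medium, cell ratio and duration of the 2D co-culture, and whether RNA was pooled are not stated in the labels or methods. With 1 library a condition, no difference has a replicate check and no test was made. All values compare these libraries, and the intervals given cover counting error only.

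B16F10 is a pigmented melanoma line derived from the C57BL/6 mouse, and NIH/3T3 is an immortalised embryonic mouse fibroblast line. Fibroblasts lay down and crosslink fibrillar collagens and other matrix proteins, and they signal to neighbouring tumor cells through growth factors, chemokines and contact. Both lines are of mouse origin, so reads of the one cannot be separated from reads of the other by sequence.

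Totals were 118896900 assigned reads in the co-culture and 144817414 in the monoculture, so that 3 reads stood for 0.0262 and 0.0211 CPM. Ratios are log2 of co-culture over monoculture CPM with 1 CPM added to each, on normalisation factors from the trimmed mean of M values (TMM), and a gene is called higher or lower past 2-fold. The 95% counting intervals are of ratios with nothing added, as are the folds and unlogged ratios of the genes set apart. For log2 ratios they reached 0.0515 to either side at the median expressed gene and 0.21 at most.

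Expression in the co-culture was close to that in the monoculture for most genes, and those past 2-fold lay mostly on the lower side. Of the 9155 expressed genes, 219 were higher (2.39%), 934 were lower (10.2%) and 87.4% lay within 2-fold, with a median log2 ratio of 0.01 and quartiles of -0.43 and 0.34. Higher genes made up 19.0% of the calls; with upper quartile scaling, which moved the median of all genes to 0.13, there were 342 higher and 771 lower genes and the share was 30.7%. The higher genes were concentrated at low monoculture levels. Among the 156 genes between 1 and 10 CPM in the monoculture 55 were higher, but 21 of the expressed genes, with monoculture levels up to 6.33 CPM, could pass the filter on the mean only by being over 2-fold higher, as were the 16 genes set apart, so these counts support nothing. Among the 999 genes with at least 200 CPM in the monoculture, 12 were higher and 90 lower. Over the 8999 members with at least 10 CPM in the monoculture, 1.82% were higher and 10.4% lower, a minimum that was chosen after the data were seen. Over all 9171 members, with the 16 set apart included, 2.56% were higher.

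**Figure D1:**
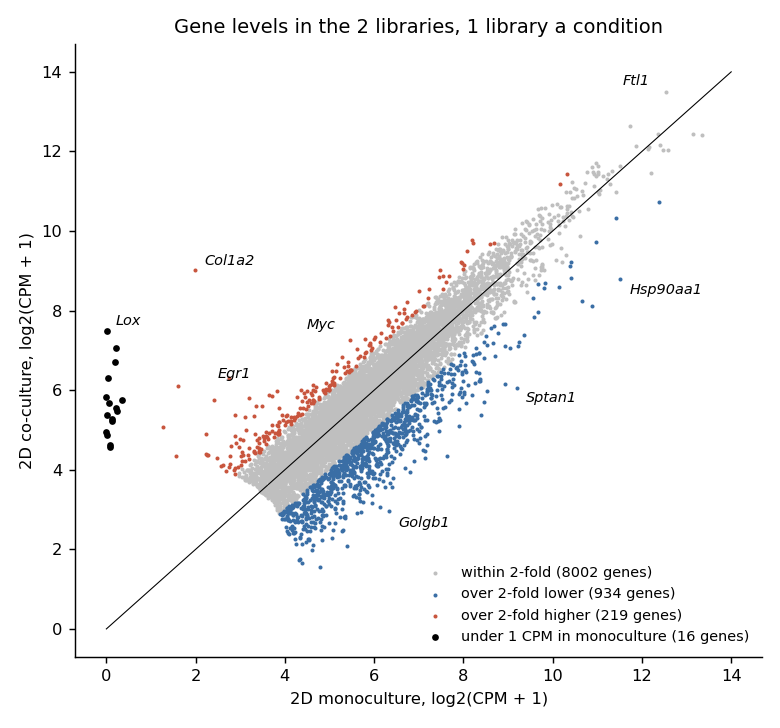
Level of each of the 9171 members in the 2D monoculture (horizontal axis) and the 2D co-culture (vertical axis), both as log2(CPM + 1). Grey points are the genes within 2-fold, blue the 934 lower, red the 219 higher and black the 16 under 1 CPM in the monoculture, which stand at the left edge; the line marks equal levels, and the slanted lower left border is the filter on the mean.

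The 16 genes set apart were 0.174% of the 9171 members and passed the filter only through their co-culture level. They included 4 of the 18 fibroblast markers, namely Col3a1, Loxl1, Acta2 and Prrx1. They had 22.7 to 179 CPM in the co-culture and between 0 and 39 reads each in the monoculture, and they summed to 961 CPM against 1.31 CPM, or 0.0925% of all co-culture reads. Their log2 ratios ran from 4.48 to 7.48. The sort was on tumor cell fluorescence and no library of NIH/3T3 alone was analysed here, so reads from fibroblasts carried through the sort and expression started in B16F10 cells cannot be told apart, nor can fewer fibroblasts from less RNA per fibroblast. Beside these genes, the 18 fibroblast markers summed to 35.3 CPM in the monoculture, 907 in the co-culture, 52.9 in the spheroid and 3691 in the tumor; 7 of the 18 reached 1 CPM in the monoculture and 15 in the co-culture.

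Lox, which encodes the lysyl oxidase that crosslinks collagen and elastin, had the most co-culture reads of the 16. It had 1 read in the monoculture and 179 CPM in the co-culture, a ratio of 25550 with a 95% counting interval from 4585 to 1009230. Loxl1, a relative that acts on elastin, had 0.0842 and 36.2 CPM. Both collagen VI chains that passed the filter belonged here, and their genes lie near each other on chromosome 10. Col6a1 (mm10, chr10:76708792-76726044) had 0.161 CPM in the monoculture and 133 CPM in the co-culture, a fold of 822 (95% counting interval 547 to 1297). Col6a2 (chr10:76595756-76623630) had 4 reads, or 0.0281 CPM, and 78.0 CPM. The third chain of the same trimer, Col6a3, missed the filter on the mean with 0.253 and 14.3 CPM.

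The fibrillar collagen genes Col3a1 and Col5a2 neighbour each other on chromosome 1. Col3a1 (chr1:45311538-45349706) had 0.274 CPM in the monoculture and 53.1 CPM in the co-culture, a fold of 194, and Col5a2 (chr1:45374331-45503282) had 0.0983 and 37.5 CPM. Bgn, the small proteoglycan biglycan (chrX:73483601-73495936), stood at 0.147 and 103 CPM. Fbln2, fibulin 2 of elastic fibres and basement membranes, had 0.0351 and 50.3 CPM. Acta2, smooth muscle actin and a marker of contractile fibroblasts, had 0.175 and 43.6 CPM. These 5 genes were again near zero in the monoculture and well measured in the co-culture.

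Regulators and receptors made up most of the remainder. Dlk1, a Delta-like protein that holds back adipocyte differentiation, had no read in the monoculture and 55.7 CPM in the co-culture. That was 2645-fold the level of 3 reads in the monoculture library, and the 95% counting interval of the fold began at 2150. Il1rl1, the receptor of interleukin 33, likewise had no read and 30.01 CPM, 1425-fold the level of 3 reads, with an interval that began at 1158. Gas1, a growth arrest gene of serum-starved fibroblasts, had 1 read and 40.6 CPM, a ratio of 5785 (95% counting interval 1038 to 228543). Fgfr1, a fibroblast growth factor receptor, had 0.0562 and 23.8 CPM. Prrx1, a homeobox factor of mesenchyme, had 0.0632 and 22.7 CPM. Prl2c2, a prolactin-family gene known as proliferin, had 0.161 and 46.2 CPM, and Pcdhgc3, a gamma protocadherin, had 1 read and 28.1 CPM, a ratio of 4008 (718.9 to 158358). Values of the last 2 are uncertain: Prl2c2 has near-identical copies, and Pcdhgc3 shares exons with its cluster, in which Pcdhgb2 was assigned 99.8 and 117 CPM.

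Set beside the other libraries, all 16 genes were far lower in the spheroid than in the 2D co-culture, at 0.483% to 4.29% of its level. They passed the filter only through a high co-culture level, which favours a lower level in another library. The contrast is therefore a description only. The tumor level was close to that of the co-culture for Lox (188 CPM), Col6a2 (82.0), Fgfr1 (25.3) and Prrx1 (24.9). It was much higher for Col3a1 (1307 CPM) and Col5a2 (169 CPM). It was far lower for Dlk1 (0.869 CPM) and for Prl2c2 (0.0246 CPM), while Gas1 had 8.12 and Il1rl1 6.07 CPM there. A lower cut of 5 CPM in the co-culture gave 64 genes under 1 CPM in the monoculture, against 18 genes in the reverse direction. All 64 were above the spheroid level, but they too were picked by their co-culture level.

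**Figure D2:**
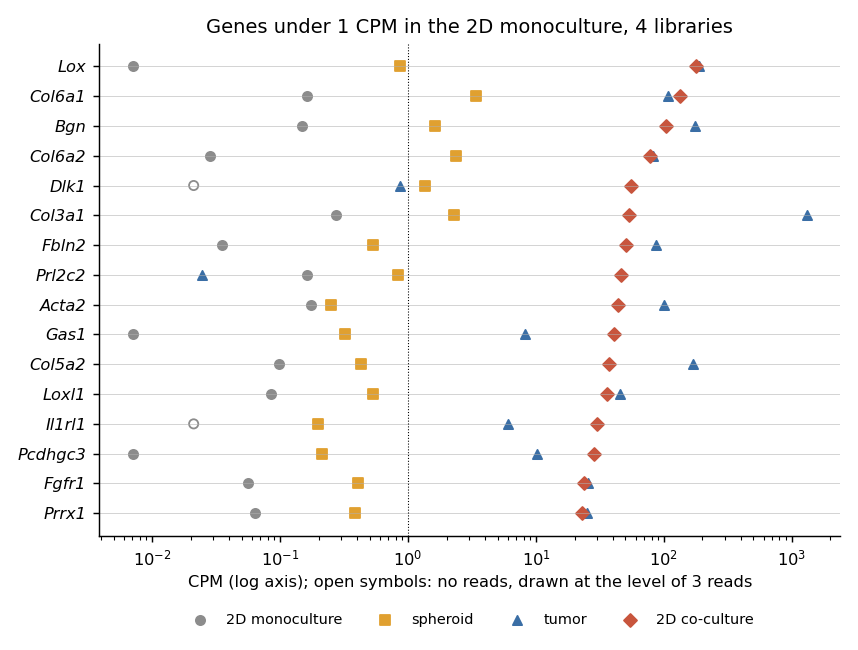
CPM on a log axis of the 16 genes under 1 CPM in the 2D monoculture, in each of the 4 libraries, ordered by co-culture level; open circles are genes without a read, drawn at the level of 3 reads. The co-culture points lie between 22.7 and 179 CPM, the spheroid points at 3.38 CPM or less, and the tumor points from 0.0246 CPM for Prl2c2 to 1307 CPM for Col3a1.

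The 5 fibroblast markers that passed the filter as expressed were all higher, against 2.39% of all expressed genes. At the monoculture levels of Col1a2, Col1a1 and S100a4 the filter allowed no other call, and at that of Mmp2 no ratio below 0. The count of higher markers therefore supports nothing. Col1a2, a chain of type I collagen, went from 2.97 to 514 CPM (log2 ratio 7.02) and Col1a1, its partner chain, from 2.03 to 67.7 CPM (4.50). S100a4, a calcium-binding protein also called fibroblast-specific protein, had 5.76 and 77.9 CPM (3.55). Mmp2, a gelatinase, had 7.78 and 31.0 CPM (1.86), and Pdgfrb, a platelet-derived growth factor receptor, had 11.02 and 27.7 CPM (1.26). These 5 of 18 members passed the filter as expressed, 4 were among the genes set apart and 9 missed the filter. Of those 9, Thy1 reached 12.5 CPM in the co-culture from 0.0211 CPM, whereas Pdgfra (0.793 and 2.51 CPM), Dcn (0.407 and 1.68 CPM), Lum (0.0491 and 0.0873 CPM) and Fap (0.0140 and 0.122 CPM) were low in both. Several usual fibroblast markers were thus hardly measured in either library. Postn (2.11 and 3.68 CPM, 0.59) and Tagln (1.70 and 9.23 CPM, 1.92) reached 1 CPM in the monoculture but also missed the filter.

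Markers of other cell types remained low in both libraries. The 8 lymphoid markers summed to 0.13 and 0.06 CPM in monoculture and co-culture, the 4 keratinocyte markers to 0.01 and 0.77, the 3 adipocyte markers to 0.64 and 1.19, and the 10 endothelial markers to 3.38 and 1.68. The 5 skeletal muscle markers summed to 3.28 and 10.1 CPM. The 12 myeloid markers summed to 30.02 and 10.9 CPM, with Cd68, a lysosomal membrane protein of macrophages, at 27.5 and 3.69 CPM (log2 ratio -2.60), Lyz2, a lysozyme, at 2.21 and 5.16 CPM, and the pan-leukocyte gene Ptprc at 0.0211 and 0.0961 CPM.

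Among matrix genes expressed in the monoculture, the glycoproteins and proteoglycans held the most higher members. Of 9 expressed, 6 were higher, against 2.39% of all expressed genes, and 0 lower, with a median log2 ratio of 1.33. Fn1, fibronectin, had 184 and 465 CPM (1.33), and the matricellular genes Cyr61 (250 and 590 CPM, 1.23) and Ctgf (6.93 and 26.3 CPM, 1.78) were higher too. Thrombospondins Thbs1 (12.1 and 33.9 CPM, 1.42) and Thbs2 (3.87 and 19.8 CPM, 2.09) and Spp1, osteopontin (6.42 and 28.0 CPM, 1.97), completed the called genes. Of these, Thbs2 could pass the filter only as higher. Thbs2, Spp1 and Ctgf lay between 1 and 10 CPM in the monoculture, where 35.3% of expressed genes were higher. At such levels the filter on the mean allowed no ratio below 0, so the direction of these genes was set by it. Sparc, which binds collagen and had the most reads of the list, stood at 2114 and 1945 CPM (-0.12). The part of fibroblast reads in the higher values was not tested.

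The rest of the matrix machinery was less changed. Its counts are to be read against 2.39% higher and 10.2% lower among all expressed genes. Among fibrillar and associated collagens, 3 of 5 expressed genes were higher, namely Col1a1, Col1a2 and Col5a1 (41.8 and 96.2 CPM, 1.18), whereas Col16a1 (0.83) and Col5a3 (0.67) were within 2-fold. Of 11 basement membrane genes 2 were higher, Nid1, the linker nidogen (30.9 and 67.5 CPM, 1.10), and Col4a1, a chain of type IV collagen (43.7 and 89.3 CPM, 1.01), and the median was 0.23. Of 11 collagen-modifying enzymes only P3h2, a prolyl 3-hydroxylase, was called (10.6 and 26.9 CPM, 1.26), and the collagen chaperone Serpinh1 had 1604 and 2047 CPM (0.35). Among proteases and inhibitors, Serpinf1 and Mmp2 were higher and Adam17, a sheddase, was lower (112 and 53.2 CPM, -1.06, but -0.69 after correction for length and GC content). None of the 7 integrin subunits was called, and their median was -0.46. Apart from the type I chains, log2 ratios of the called genes in these lists lay between -1.06 and 2.62.

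The highest ratios among expressed genes were led by Col1a2 and Col1a1, described above. The next was Igfbp6 and then S100a4. Igfbp6, which binds insulin-like growth factor II, had 1.42 and 32.8 CPM (log2 ratio 3.81). Actin crosslinkers followed, with Flnc, filamin C, at 4.34 and 52.97 CPM (3.34) and Fscn1, the bundling protein fascin, at 1.94 and 19.3 CPM (2.79). Serpinf1, pigment epithelium-derived factor, had 8.12 and 55.0 CPM (2.62). Cav1, the coat protein of caveolae, had 9.15 and 47.7 CPM (2.26). Mest, an imprinted gene, had 6.42 and 40.4 CPM (2.48), a value that is uncertain because it overlaps Copg2 (98.9 and 51.0 CPM). All of these were low in the monoculture, and Igfbp6, Flnc, Fscn1 and Fosb could pass the filter only as higher. Among expressed caveolae genes, a list made after values were seen, Cav1 was the 1 of 5 called (median 0.71). Among S100 genes, listed likewise, S100a4 and S100a6 were 2 of 7 (median 0.42). Of all expressed genes, 2.39% were higher. Csf1, the macrophage colony-stimulating factor, had 11.4 and 57.5 CPM (2.23), and Fosb is given with the immediate early genes.

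With at least 10 CPM asked of the monoculture, a view chosen after the values were seen, the leading genes were Csf1, S100a6, Egr1, Slc35f1 and Myc. S100a6, a calcium-binding protein, had 13.2 and 62.5 CPM (2.17), and Slc35f1, a member of the solute carrier family, had 10.2 and 47.4 CPM (2.11). Amotl2, an angiomotin-like protein that binds YAP, had 87.5 and 270 CPM (1.61). Axl, a receptor tyrosine kinase, had 18.2 and 56.0 CPM (1.57), and Fabp5, a fatty acid binding protein, had 177 and 516 CPM (1.54). Gjc3, a connexin, had 37.9 and 114 CPM (1.56). The spheroid levels of S100a6 (4.81 CPM), Slc35f1 (19.3 CPM) and Gjc3 (32.9 CPM) were well under those of the co-culture. Csf1, Myc, Amotl2 and Fabp5 were also lower in the spheroid, whereas Egr1 (168 CPM) and Axl (74.0 CPM) were higher there.

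Most immediate early genes and feedback genes of the ERK pathway lay above 0. Of 17 expressed members 8 were higher and 0 lower, against 2.39% and 10.2% of all expressed genes, 16 lay above 0, and the median log2 ratio was 0.77 against 0.01. After correction for length and GC content 7 were higher, with Ier2 at 0.80 and Spry1 at 0.98. Among the transcription factors, Egr1 had 12.1 and 57.0 CPM (2.15), Fos 23.7 and 63.2 CPM (1.38), and Fosb 3.73 and 29.1 CPM (2.67). Myc, which drives growth and division, had 43.3 and 153 CPM (1.80), and Ier2 had 30.6 and 62.9 CPM (1.02). Among genes that report or restrain ERK activity, the phosphatase Dusp6 had 55.4 and 123 CPM (1.13), the inhibitor Spry1 13.3 and 29.0 CPM (1.07), and the ETS factor Etv5 3.69 and 20.2 CPM (2.18). Jun (200.4 and 316 CPM, 0.66) and Dusp4 (194 and 332 CPM, 0.77) were within 2-fold, and Jund, at 190 and 124 CPM (-0.60), was the only expressed member below 0. Fosb and Etv5 could pass the filter only as higher, and the other 6 called genes had at least 10 CPM in the monoculture. The spheroid library had 168 CPM of Egr1 and 45.1 CPM of Fosb.

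Most genes of amino acid synthesis and transport lay above 0 as well. Of 17 expressed members 6 were higher and 1 lower, against 2.39% and 10.2% of all expressed genes, and the median was 0.76. Serine and one-carbon genes included Phgdh, the entry enzyme of serine synthesis (269 and 727 CPM, 1.43), Psph, its last step (43.4 and 89.3 CPM, 1.03), and Shmt2, the mitochondrial enzyme that passes serine's carbon on (247 and 592 CPM, 1.26). Transporters included Slc7a5 for large neutral amino acids (173 and 460 CPM, 1.40) and Slc7a1 for arginine and lysine (256 and 562 CPM, 1.13). Cth, of cysteine synthesis, had 18.7 and 41.7 CPM (1.12). After correction for length and GC content 4 were higher, with Psph at 0.84 and Cth at 0.91. The exception was Slc7a11, the cystine importer, with 420 and 115 CPM (-1.86). In the ATF4 list, which shares the amino acid response, the median was -0.17 with 0 of 12 higher, and Atf3 was the lower gene (173 and 30.3 CPM, -2.48), while Atf4 itself had 671 and 1229 CPM (0.87).

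**Figure D3:**
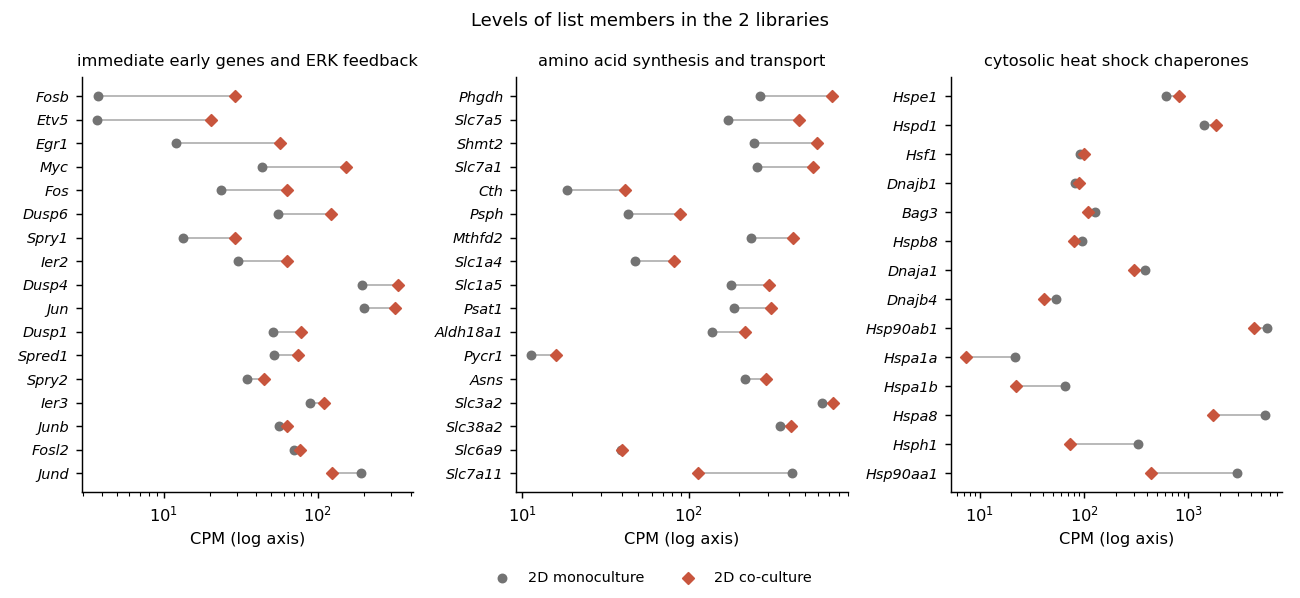
CPM on a log axis of every expressed member of 3 lists in the 2D monoculture (grey circles) and the 2D co-culture (red diamonds), ordered by ratio. In the immediate early and amino acid panels all members but Jund and Slc7a11 lie to the right in the co-culture, whereas Hsp90aa1, Hsph1, Hspa8, Hspa1b and Hspa1a lie to the left.

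The medians of replication genes and of mitosis genes lay on opposite sides of 0. Of 24 expressed replication and S phase genes 20 lay above 0, with a median of 0.68, although only Gins1 (13.7 and 35.5 CPM, 1.31), of the replicative helicase, and Ung (19.1 and 46.2 CPM, 1.23), which removes uracil from DNA, passed 2-fold. Pcna, the sliding clamp, had 375 and 682 CPM (0.86), and Mcm2, of the helicase, 489 and 811 CPM (0.73). The lower members were the large polymerase subunits Pola1 (24.3 and 8.29 CPM, -1.44) and Pole (43.4 and 17.5 CPM, -1.27). Of 22 G2 and mitosis genes 9 were lower and 1 higher, against 10.2% and 2.39% of all expressed genes, with a median of -0.54. The centromere proteins Cenpf (22.0 and 3.81 CPM, -2.25) and Cenpe (19.1 and 3.83 CPM, -2.05), the proliferation marker Mki67 (87.3 and 24.5 CPM, -1.79) and Top2a, a topoisomerase (168 and 56.6 CPM, -1.55), were lowest. Birc5, survivin, was higher (83.3 and 192 CPM, 1.20), and the mitotic cyclin Ccnb2 (61.6 and 115 CPM, 0.89) and kinase Cdk1 (135 and 221 CPM, 0.71) lay above 0. Several of the lower genes have long transcripts: after correction for length and GC content the mitosis median was -0.34 with 5 lower and 1 higher, Mki67 being at -0.83 and Top2a at -0.95, and the replication median was 0.63 with 0 lower, Gins1 being at 0.78.

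Host genes of small nucleolar RNAs, a list made after the values were seen, all lay above 0. They are spliced RNAs whose introns carry snoRNAs, and like ribosomal protein mRNAs many begin with a run of C and T at the start site. Of 12 expressed host genes 10 were higher and 0 lower, against 2.39% and 10.2% of all expressed genes, with a median of 1.19. Because of how the list was made, these counts are a description only. Gas5 had 205 and 469 CPM (1.19), Snhg1 54.7 and 154 CPM (1.48), Snhg5 19.7 and 62.8 CPM (1.63), Snhg8 20.9 and 55.9 CPM (1.38), Snhg12 16.5 and 36.3 CPM (1.09) and Zfas1 41.9 and 103 CPM (1.28). Cytoplasmic ribosomal protein genes, 20 of them, had a median of 0.67 with 19 above 0 and 0 called, from Rpl4 (1391 and 1338 CPM, -0.06) to Rpl10 (165 and 325 CPM, 0.98). Both groups are short, with median transcript lengths of 1221 and 1053 bases, and their medians were 0.88 and 0.31 after correction for length and GC content, with 4 of the 11 host genes that have a corrected ratio then past 2-fold. Ribosomal protein values are uncertain because of processed pseudogenes.

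Windows around the start sites of some of these genes are shown, with any pyrimidine run near the start marked. A marked run need not begin at the start, and that of Snhg5 lies downstream of it. Each window covers 15 bases either side of the start annotated by RefSeq (GRCm38.p6, the assembly also called mm10), is read 5′ to 3′ on the gene's strand, and has runs of at least 6 consecutive C or T in capitals.
Gas5, chr1:161035151-161035180, plus strand, its downstream annotated start: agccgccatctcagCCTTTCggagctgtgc
Snhg8, chr3:123508322-123508351, minus strand: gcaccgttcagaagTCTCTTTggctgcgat
Snhg12, chr4:132308663-132308692, plus strand: ggccgttctcagTCCTTTCTCgcttcatcc
Snhg5, chr9:88522883-88522912, minus strand: gagctgcggtgaaccgggctcgTTCTTTTa
Rps24, chr14:24490663-24490692, plus strand, its upstream annotated start: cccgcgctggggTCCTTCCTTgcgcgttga
Zfas1, chr2:167062919-167062948, plus strand, without such a run: ttgactgcgccccgggcggccgcaggtctc
Such a run was present in the window around an annotated start of 6 of the 9 host genes in the promoter table (66.7%). The same held for 8 of 14 ribosomal protein genes (57.1%). It compares with 32.6% of the 7250 expressed genes that are in the promoter table and 32.7% of all 27025 genes in it. The search was on the gene's strand only, and a match describes these letters and nothing more.

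In absolute terms the largest gains were in abundant housekeeping and iron genes. The ferritin light chain Ftl1 went from 5958 to 11532 CPM (log2 ratio 0.95) and the heavy chain Fth1 from 3408 to 6346 CPM (0.90). Ptma, the nuclear protein prothymosin alpha, had 1277 and 2743 CPM (1.10), Tuba1b, an alpha tubulin, 2012 and 3350 CPM (0.74), and Rps2, of the small ribosomal subunit, 1897 and 3126 CPM (0.72). The largest losses were in Gpnmb, a melanosomal glycoprotein, with 10390 and 5483 CPM (-0.92), Hspa8, Eef1a1, a translation elongation factor, with 9077 and 5560 CPM (-0.71), Hsp90aa1, and Sqstm1, an autophagy receptor, with 4733 and 2792 CPM (-0.76). Of 10 expressed tubulins, listed after values were seen, none was called (median 0.07). Values of Ftl1, Fth1, Ptma, Tuba1b, Rps2 and Eef1a1 are uncertain where reads fall in near-identical copies.

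Antioxidant genes split. Of 18 expressed members of the list on NRF2, ferritin and metallothionein, 1 was higher and 3 lower. These compare with 2.39% and 10.2% of all expressed genes, and the list median was 0.16. Mt2, a metallothionein, had 105 and 296 CPM (1.48), and Mt1 had 299 and 576 CPM (0.95). Srxn1, sulfiredoxin (1355 and 448 CPM, -1.59), G6pdx, of the pentose phosphate pathway (361 and 163 CPM, -1.14), and Slc7a11 were lower. The transcription factor gene Nfe2l2, NRF2 itself, had 151 and 81.5 CPM (-0.88).

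Heat shock chaperones help proteins to fold and are induced by stress. Of 14 expressed members 5 were lower, against 10.2% of all expressed genes, and 0 higher, with a median of -0.36. Hsp90aa1, the inducible cytosolic HSP90, had 2917 and 441 CPM (-2.72), Hsph1, an HSP110 exchange factor, 332 and 73.7 CPM (-2.16), and Hspa8, the constitutive HSC70, 5372 and 1701 CPM (-1.66). The inducible HSP70 genes Hspa1a (21.8 and 7.398 CPM, -1.44) and Hspa1b (66.2 and 22.1 CPM, -1.54) are near-identical and share reads. Hsp90ab1, the constitutive HSP90, had 5711 and 4214 CPM (-0.44), and the mitochondrial chaperones Hspd1 (0.37) and Hspe1 (0.40), which the list also holds, lay above 0. Among 6 expressed small heat shock proteins, listed after values were seen, Hspb7 (69.3 and 7.398 CPM, -3.06), Hspb6 (129 and 26.7 CPM, -2.23) and Cryab, alpha B crystallin (1131 and 386 CPM, -1.55), were lower. Chaperones of the endoplasmic reticulum went both ways, with Manf (291 and 875 CPM, 1.58) and Herpud1 (79.3 and 208 CPM, 1.38) higher, Hsp90b1 (1995 and 845 CPM, -1.24), Atf6 (125 and 55.5 CPM, -1.16) and Dnajc3 (181 and 86.9 CPM, -1.05) lower, and a median of 0.18 over 19 members. After correction for length and GC content Atf6 was at -0.44 and Dnajc3 at -0.69, within 2-fold.

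The 12 lowest ratios among expressed genes ran from -3.36 to -2.82. Golgb1, the golgin giantin, had 79.4 and 6.83 CPM (log2 ratio -3.36), Syne2, nesprin 2 of the nuclear envelope, 197 and 19.4 CPM (-3.28), and Sptan1, alpha spectrin, 588 and 65.8 CPM (-3.14). Dst, dystonin (338 and 40.7 CPM, -3.02, overlapping Bend6), Herc2, a ubiquitin ligase (110 and 14.5 CPM, -2.85), Exoc4, an exocyst subunit (139 and 18.6 CPM, -2.84), and Mdn1, the ribosome assembly ATPase midasin (83.2 and 10.8 CPM, -2.83), came next. Akap9, a centrosomal kinase anchor (38.1 and 4.52 CPM, -2.83), and Vps13d, a lipid transfer protein (38.6 and 4.61 CPM, -2.82, overlapping Dhrs3), closed the group. The remaining members were Ppm1e, a phosphatase (41.3 and 3.28 CPM, -3.31, overlapping Trim37), Serpinb9b, a protease inhibitor with close paralogs (26.7 and 1.96 CPM, -3.23), and Hspb7. The median transcript length of these 12 genes was 12062 bases.

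Transcript length went with the ratio throughout the table. In 10 length classes of equal size the median log2 ratio fell from 0.43 in the shortest class, 86 to 1316 bases, to -0.65 in the longest, 6808 to 123179 bases, and the share of lower genes rose from 1.09% to 36.5% (333 of 913 genes). Over the 9129 genes with a length and GC value, Spearman's rho across genes was -0.42 with length and 0.23 with GC content, a description over genes of the same 2 libraries. Of 19 expressed giant genes 17 were lower, against 10.2% of all expressed genes, with a median of -2.27. Among 12 golgins and Golgi tethers listed afterwards 8 were lower, with a median of -2.28. Of 5 spectrin, plectin and actinin genes listed likewise 3 were lower, Sptan1, Sptbn1 (354 and 50.8 CPM, -2.78) and Plec (297 and 117 CPM, -1.34). Dync1h1, the dynein heavy chain, had 1622 and 302 CPM (-2.42), whereas Lrp1, a large endocytic receptor, had 99.0 and 111 CPM (0.16) and Kmt2d, a histone methyltransferase, 122 and 116 CPM (-0.07). Corrected for length and GC content, there were 265 higher genes (2.9%) and 589 lower (6.45%), so that 31.0% of calls were higher, and the giant gene median was -1.58 with 14 lower. The methods set a minimum RNA integrity number for including samples, without a value for each library, and its part was not tested.

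**Figure D4:**
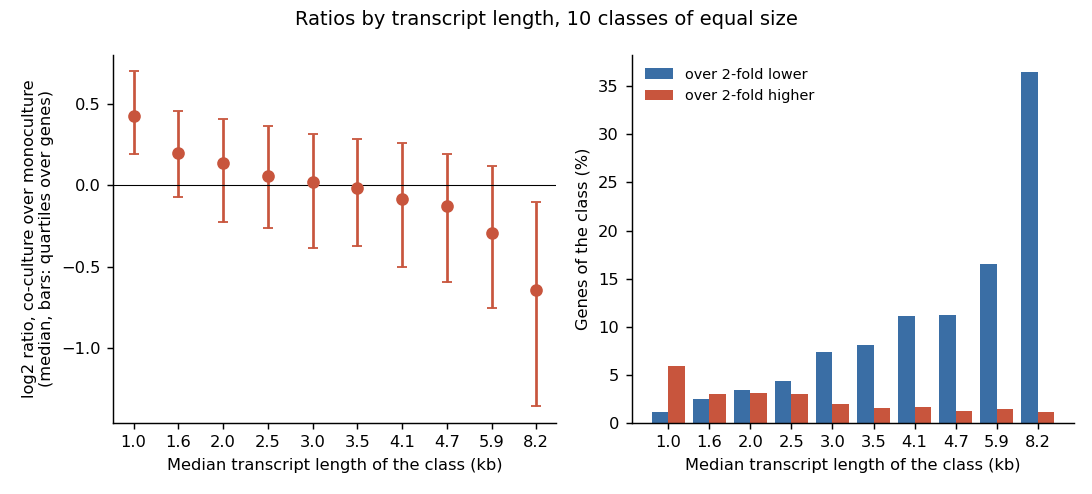
Left, median (points) and quartiles (bars) over genes of the log2 ratio of co-culture over monoculture in 10 classes of transcript length, named by their median length in kilobases; right, the percent of genes in each class over 2-fold lower (blue) and higher (red). The median falls from 0.43 to -0.65, and the share of lower genes rises from 1.09% to 36.5%.

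The same classes ran alike in the spheroid set against the monoculture, from 0.63 to -1.18, and in the tumor against the monoculture from 0.26 to -0.57. Both share the monoculture library with the comparison described here. Between the co-culture and the tumor, which does not use that library, the class medians were 0.20 and -0.05 at the ends and 0.30 to 0.55 between them. Genes with transcripts of 1230 to 2769 bases that were among the 12 lowest after correction included Lgals3, the lectin galectin 3 (1871 and 275 CPM, -2.76), Dok5, an adaptor of receptor kinases (144 and 23.5 CPM, -2.56), Hist1h1c, a linker histone (72.4 and 12.2 CPM, -2.47), Atf3, Cd68 and Hspb7.

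The medians of the melanocyte gene lists lay near that of all genes. Of 14 melanosome and pigment genes 1 was lower and 0 higher, against 10.2% and 2.39% of all expressed genes, with a median of 0.02. The lower gene was Oca2, a melanosomal transporter, with 23.02 and 6.53 CPM (-1.67). Tyr, tyrosinase, had 506 and 534 CPM (0.08), Dct 4482 and 4246 CPM (-0.08), and Pmel, the fibril protein, 2923 and 3198 CPM (0.13). Further from 0 were Gpnmb (-0.92), Tyrp1 (6168 and 4232.5 CPM, -0.54) and Mlana (622 and 970 CPM, 0.64). Of the 14 genes 7 lay above 0 and 7 below. None of 7 regulators and receptors was called; Sox10 had 834 and 871 CPM (0.06), while Mitf, the lineage's master regulator, had 416 and 223 CPM (-0.89). Both libraries thus carried the pigment genes that the label of a B16F10 melanoma line asks for. Of 5 expressed phenotype switch genes, Axl was higher, and the intermediate filament genes Vim (2731 and 1281 CPM, -1.09) and Nes (311 and 120 CPM, -1.37) were lower. Snai1 (0.0562 and 4.82 CPM), Twist1 (0 and 3.06 CPM) and Tnc, tenascin C (0.00702 and 16.3 CPM), missed the filter.

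Signalling lists were mixed, with counts to be read against 2.39% higher and 10.2% lower among all expressed genes. Among TGF-beta response genes, Bambi, a decoy receptor (13.1 and 34.0 CPM, 1.31), and Id1, an inhibitor of bHLH factors (8.87 and 21.0 CPM, 1.16, but 0.74 after correction), were higher. Of 12 targets of YAP and serum response factor 3 were higher, Amotl2, Ctgf and Cyr61, with a median of 0.32. Hes1, a Notch target, had 32.1 and 87.8 CPM (1.42), and the other expressed Notch pathway genes, Jag1 (0.02) and Notch2 (0.08), were near 0. Among receptors, Axl and Pdgfrb were higher and Met, the receptor of hepatocyte growth factor, was lower (652 and 167 CPM, -1.96). Of 6 expressed growth factors only Csf1 was called. None of 7 expressed chemokine and NF-kB genes was called; the chemokines Ccl2 (0 and 8.16 CPM), Cxcl5 (0 and 4.80 CPM), Ccl7 (0 and 3.01 CPM) and Cxcl12 (0.0562 and 5.07 CPM) missed the filter and were near zero in the monoculture.

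Of 8 expressed interferon-stimulated genes 3 were lower, against 10.2% of all expressed genes, and 0 higher, with a median of -0.96. They were Ddx58, the RNA sensor RIG-I (19.8 and 2.14 CPM, -2.72), Rsad2, viperin (83.2 and 17.2 CPM, -2.21), and Isg15, a ubiquitin-like modifier (14.3 and 5.83 CPM, -1.17), whereas Bst2, tetherin, had 28.9 and 57.0 CPM (0.96). Below the filter, Ifit1 (10.5 and 1.14 CPM) and Ifih1 (11.8 and 1.60 CPM) were lower too. None of 6 genes of MHC class I presentation was called, with a median of -0.03 that was -0.40 after correction for length and GC content. Of 14 expressed p53 targets and CDK inhibitors 2 were lower, a share near the 10.2% of all expressed genes, namely Trp53inp1 (132 and 32.5 CPM, -1.99) and Ccng1 (484 and 202 CPM, -1.26), and Cdkn1a, p21, had 847 and 515 CPM (-0.72).

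Translation and metabolism lists held few calls, with shares of lower genes to be read against 10.2% of all expressed genes. Of 20 aminoacyl-tRNA synthetases 3 were lower, Eprs (489 and 70.5 CPM, -2.78), Lars (117 and 28.3 CPM, -2.01) and Rars (182 and 64.3 CPM, -1.49), with a median of -0.35. Of 22 ribosome biogenesis genes 4 were lower, among them Mdn1 and Ncl, nucleolin (910 and 411 CPM, -1.15, but -0.23 after correction for length and GC content), with a median of -0.04. Of 19 lysosome and autophagy genes, Nbr1 (171 and 36.1 CPM, -2.21), Ctsb, cathepsin B (1369 and 593 CPM, -1.21), and Atp6v1a, of the proton pump (410 and 195 CPM, -1.07), were lower, the last pair being within 2-fold after correction (-0.93 and -0.89). None of 20 nuclear subunits of oxidative phosphorylation was called, with a median of 0.27 that was -0.01 after correction for length and GC content, and none of 21 cholesterol genes was called (median 0.11). In fatty acid synthesis, Acaca (78.1 and 23.6 CPM, -1.68, but -0.99 after correction) and Acacb (40.9 and 15.7 CPM, -1.33), both acetyl-CoA carboxylases, were lower and the desaturase Fads1 was higher (135 and 276 CPM, 1.02), and of the sterol efflux genes Abca1, a cholesterol exporter, was lower (65.5 and 11.2 CPM, -2.44) and the regulator Srebf1 higher (121 and 255 CPM, 1.06). Of 16 hypoxia genes Kdm3a, a histone demethylase, was lower (85.1 and 38.95 CPM, -1.11, but -0.74 after correction) and none higher. Of 16 glycolysis enzymes, Pfkp, a phosphofructokinase (312 and 134 CPM, -1.22), and Eno2, an enolase (59.5 and 26.6 CPM, -1.13), were lower. Of 13 adhesion genes, Cdh19, a cadherin (42.8 and 14.4 CPM, -1.51), and Ctnna1, alpha catenin (220 and 83.3 CPM, -1.39), were lower, and none of 10 ephrin and semaphorin genes was called.

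**Figure D5:**
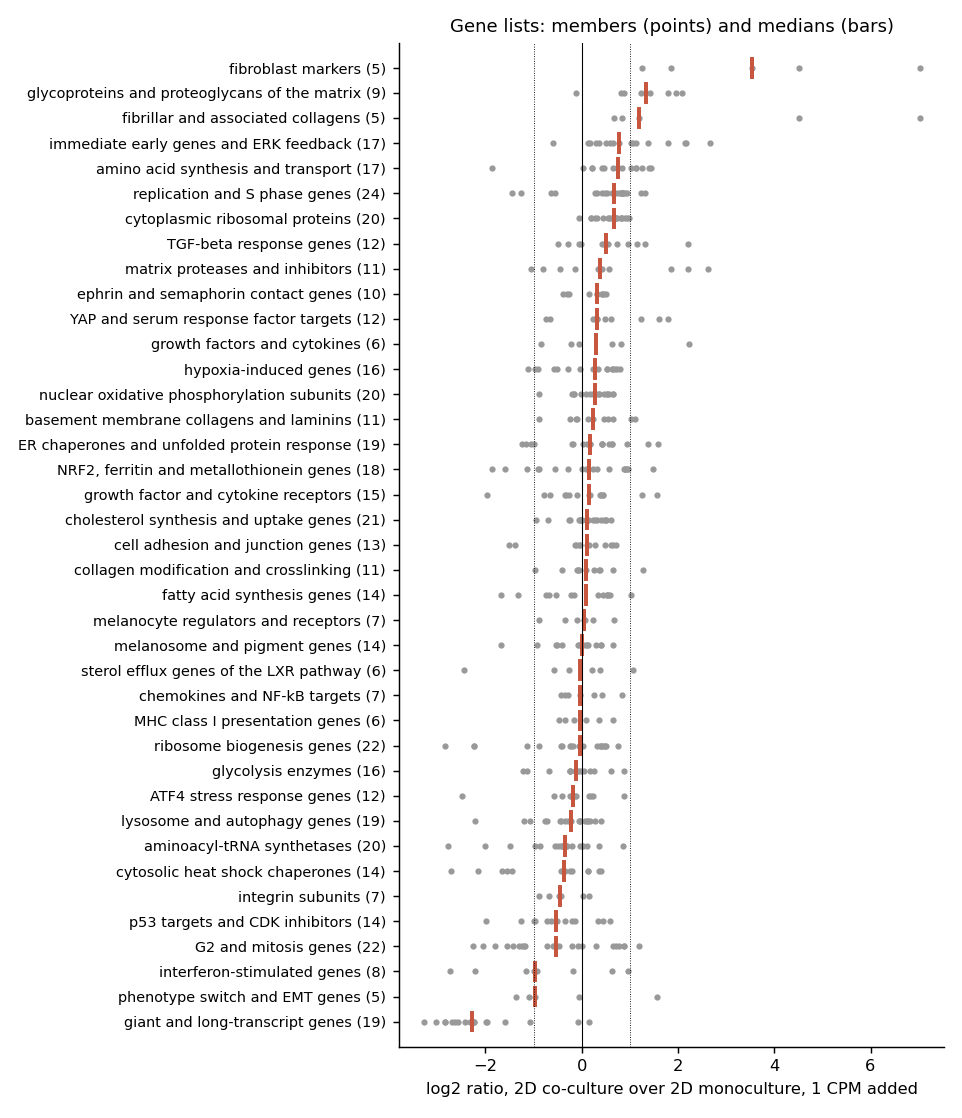
Log2 ratio of co-culture over monoculture of each expressed member (grey points) and the list median (red bars) for the gene lists with at least 5 expressed members, whose number stands in parentheses; dotted lines mark 2-fold. Fibroblast markers lie at the top with a median of 3.55 and giant genes at the bottom with -2.27, and most lists lie within 2-fold of 0.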

How the data were processed

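RNA was enriched for poly(A), and per the submitters' processing notes reads were trimmed with Trimmomatic, aligned to mm10 with STAR and counted per gene with featureCounts; these sources name no versions or strand setting, and sense and antisense genes cannot be told apart. The deposited values used here are the authors' raw counts per gene. CPM was computed with TMM factors over the 4 libraries (edgeR 4.0.16 in R 4.3.3), of 118896900 to 150028663 reads, and log2 ratios with 1 CPM added in Python 3.11.15. With 1 library a condition no test was run. Intervals are 95% exact binomial, for ratios with nothing added. The ratio computation was tested on simulated data in which 200 genes were changed 4-fold. Corrected ratios are relative to genes of like transcript length and GC content in GENCODE, with values for 99.7% of expressed genes. Alternatives covered scaling, filter, pseudocount and monoculture minimum.

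Named genes were the 12 highest and 12 lowest ratios, the 5 largest gains and losses in CPM, the genes set apart, and list members past 2-fold or at the ends of a list, with a few others chosen after values were seen. Members and lists were chosen with earlier results of these data known, and 7 lists (golgins, spectrins, snoRNA hosts, small heat shock proteins, tubulins, S100 and caveolae genes) after values were seen. Mitochondrially encoded genes had no row in the table used. The values of 1 named gene and the list summaries that rest on it are not reported here.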

Additional observations from a re-analysis of the deposited data

How the results depend on the processing

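A median was counted as kept when it moved by less than 1.5-fold. Under scaling by the TMM factors of the 2 libraries, DESeq2 size factors, total count and upper quartile, other pseudocounts, other minimums, the length and GC correction and a call on the counting interval, 473 of 479 list medians, 724 of 776 single-gene values and 53 of 61 counts and overall values were kept, and no value over 2-fold and no list median over 1.5-fold changed sign. Of the 52 single-gene values that moved, 28 did so with 5 CPM added, 17 with 0.1 CPM added and 7 with the correction. The exceptions among the main values were these. With upper quartile scaling, 342 genes were higher in place of 219, and 30.7% of calls were higher in place of 19.0%; 6 of 40 list medians, of a size up to 0.11, changed sign under a scaling (melanosome genes with total count; chemokine, MHC class I, glycolysis, sterol efflux and ribosome biogenesis genes with upper quartile). With the length and GC correction, 589 genes were lower in place of 934, 31.0% of calls were higher, the median of the phenotype switch genes was -0.15 in place of -0.96, and that of the giant genes was -1.58 in place of -2.27. The number of genes set apart, 16, was 270 with a mean of at least 1 CPM, 6692 without a filter, 27 with a monoculture minimum of 5 CPM and 172 with one of 10 CPM, the last chosen after seeing the data. The fibroblast marker median, 3.55, was 1.92 with a mean of at least 1 CPM and without a filter, 1.86 with a monoculture minimum of 5 CPM and 2.95 with 5 CPM added. No paired analysis was possible because no condition had more than 1 library. Depth limited little here, and the lack of replicates limits every value.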
